A study of Mus musculus with 22 samples.

Results

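Peg3 and 8 further genes with lower Sd scores in mouse cortex that carries the N40K transgene are described here. The genes are Peg3, Fnbp4, Nudt16, Praf2, Vwa3b, Mob3c, Ankrd39, Spag4 and Zp2. They were chosen by name because their scores were lower in N40K or dTg libraries at 6 months, so every difference between those libraries and their controls is a description and not a test. All 9 have a row in the 6-month table of 15705 genes. In the 12-month table of 15192 genes 8 have a row, with Mob3c under its older symbol Mobkl2c, and Zp2 was not analysed there. The 6-month table lists Peg3 as ENSMUSG00000002265, Fnbp4 as ENSMUSG00000008200, Nudt16 as ENSMUSG00000032565, Praf2 as ENSMUSG00000031149, Mob3c as ENSMUSG00000028709, Ankrd39 as ENSMUSG00000079610, Spag4 as ENSMUSG00000038180 and Zp2 as ENSMUSG00000030911, and Vwa3b by its symbol.

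The 6-month libraries came from cortex of dTg mice, N40K mice, 5xFAD mice and wild-type (WT) mice, 3 libraries each, all born to crosses of heterozygous N40K and heterozygous FAD carriers. In N40K mice the transgene encodes the N-terminal part of U1-70K, which belongs to the splicing particle U1 snRNP. The promoter that drives it is not given in the sources used here. The 5xFAD mice carry transgenes for mutant human amyloid precursor protein and presenilin 1, which act in neurons and cause amyloid plaques, and dTg mice have the N40K and the 5xFAD transgenes together. The 12-month libraries came from cortex of 6 Tau P301S mice, a line with a transgene for human tau bearing the P301S mutation, and of 4 WT mice from crosses of heterozygous Tau P301S carriers with WT mice. The labels call the mice of each set littermates and number the libraries, without saying whether each library is 1 animal, so the spread between libraries may hold technical variation.

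The Sd score is a ratio per gene and library, deposited with 3 decimals. How it is computed is not stated in the sources used here, and it is taken, from its name and from the title of the series, to be a splicing deficiency score, with higher values for more unspliced signal. It is no expression level, and nothing below says how much transcript was present. The read depth behind the scores is unknown, so no counting error can be given. As a check of the tissue, 18 of 21 marker genes of cortical neurons, cortical layers, glia and endothelium had a row at 6 months and 20 of 21 at 12 months, which is all that a score without expression can show. The 2 choroid plexus markers looked for both had a row at 12 months and none among the 6-month rows analysed here. The median score over all genes was 0.03 to 0.035 in dTg, 0.031 to 0.036 in N40K, 0.029 to 0.031 in 5xFAD and 0.029 to 0.03 in WT libraries, highest in N40K replicate 1 (0.036) and dTg replicate 2 (0.035). Libraries of the 6-month table correlated with r of 0.98 to 0.99 across genes on the log2 scale, and those of the 12-month table with r of 0.949 to 0.986.

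U1 snRNP starts splicing by base-pairing with the 5′ splice site, which spans the last bases of an exon and the first bases of the intron. The exon part of the site that pairs best with U1 RNA ends in CAG. When an intron is not removed, its sequence stays in the RNA, and many such transcripts are held in the nucleus or degraded. Peg3 is a paternally expressed imprinted gene for a large zinc-finger protein, known in mice for its part in growth, maternal behaviour and cell death.

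The exon ends of these genes are shown because they are the part of the U1 site that remains in the spliced transcript, for Peg3 and for Nudt16, Praf2, Mob3c and Ankrd39, which have few introns. Each line gives 20 bases across an exon-exon junction of the annotated transcript (GENCODE M21, on build GRCm38, gene on the strand given), 10 from either exon, with the last 3 bases of the upstream exon in capitals.
Peg3 (chromosome 7, minus strand) intron 1: gctccggGAGccctaccttc
Peg3 intron 2: gctggtcCAGgcaggccttc
Peg3 intron 3: catcacgAAGacgacaccaa
Peg3 intron 4: gcttttgGCAgtgagcgaga
Peg3 intron 5: cccagaaGCAggctgcctca
Peg3 intron 6: tcgatccCAGgatgccgagt
Peg3 intron 7: ctctcgcTGGgagtccagct
Peg3 intron 8: accagccGAGgtctcaaacc
Nudt16 (chromosome 9, minus strand) intron 1: cgccgtgCTGatgcagatgc
Nudt16 intron 2: tgggctgGAGgtgctgggcc
Praf2 (chromosome X, plus strand) intron 1: cgctggcCGGgtacattcgt
Praf2 intron 2: cctgtgtTTTtgatcctgct
Mob3c (chromosome 4, plus strand) intron 1: ggcggagCGGgtcatcttca
Mob3c intron 2: acacgtgTGGgagttccctt
Mob3c intron 3: ggagccaCTGagggagatga
Ankrd39 (chromosome 1, minus strand) intron 1: ttcgacaGGGgaatctggtc
Ankrd39 intron 2: caccgcaCTGcactacgcca
Ankrd39 intron 3: tctgcatAAGgctgcggaga

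Exon ends in AG stood at 5 of 8 junctions in Peg3, at 13 of 16 in Fnbp4, at 6 of 11 in Spag4, at 9 of 17 in Zp2, at 3 of 7 in Vwa3b, at 1 of 2 in Nudt16, at 1 of 3 in Ankrd39 and at none of the 2 in Praf2 and the 3 in Mob3c. Over the 9 genes 38 of 69 junctions (55.1%) ended in AG and 18 (26.1%) in CAG, against 56.2% and 23.9% of the 159744 junctions of the genes in the 6-month table. The shares of the 9 genes together were close to those of all genes. Fnbp4 and Peg3 lay above the AG share of all genes and the other 7 below it, on 2 to 17 junctions each. The intron side of each site was not read, because no genome of the build of the files was used here.

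The genes differ widely in structure. The annotated transcript of Nudt16 has 2 introns with 862 bases in all, and that of Praf2 2 introns with 1287 bases. Mob3c has 3 introns (5210 bases), Ankrd39 3 (7243 bases), Spag4 11 (2785 bases) and Zp2 17 (10730 bases). Peg3 with 8 introns (17836 bases) is near the medians of all genes, 8 introns and 19595.5 bases, and Fnbp4 with 16 introns (30961 bases) lies above both. The Vwa3b transcript used has 7 introns (45911 bases) and covers only part of the annotated gene. Summed intron length lay below the median in 7 of the 9 genes. Praf2 and Ankrd39 each overlap a predicted protein-coding gene on the same strand, by 2092 bases (Gm45208) and 1923 bases (Gm42417), and Fnbp4 and Vwa3b overlap a pseudogene or an antisense gene on the opposite strand. The libraries were stranded, but the sources used here do not say whether counting used strand, and reads of these overlaps cannot be assigned to 1 gene with certainty.

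Peg3 and Nudt16 encode proteins that act on DNA or RNA. The Peg3 score was 0.082, 0.059 and 0.083 in dTg, 0.061, 0.073 and 0.069 in N40K, 0.135, 0.13 and 0.125 in 5xFAD and 0.123, 0.133 and 0.142 in WT libraries. All 6 libraries with the N40K transgene lay below all 6 without it, with a gap between 0.083 and 0.123. The log2 difference was −0.95 ± 0.13 (SE) for N40K minus WT and −0.80 ± 0.13 for dTg minus 5xFAD, on the scale log2(score + 0.002) used for all differences here, which draws the differences of low scores towards 0.

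Nudt16 encodes a Nudix hydrolase that can remove the cap of RNA and hydrolyses inosine nucleotides. Its score was 0.21, 0.198 and 0.176 in dTg, 0.132, 0.129 and 0.152 in N40K, 0.272, 0.229 and 0.237 in 5xFAD and 0.254, 0.23 and 0.212 in WT libraries. The N40K libraries were the lowest of the 12, and the dTg libraries lay between them and the libraries without N40K, overlapping with neither. The log2 difference was −0.74 ± 0.10 for N40K minus WT and −0.33 ± 0.10 for dTg minus 5xFAD.

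Of the genes tied to membranes and the cytoskeleton, Fnbp4, which encodes a WW-domain protein that binds formins, had the narrowest spread. Its score was 0.026, 0.024 and 0.026 in dTg, 0.021, 0.023 and 0.023 in N40K, 0.033, 0.034 and 0.036 in 5xFAD and 0.035, 0.033 and 0.033 in WT libraries. The 6 carriers of N40K were separated from the other 6 libraries, and the dTg libraries stood just above the N40K libraries. The log2 difference was −0.55 ± 0.05 for N40K minus WT and −0.41 ± 0.05 for dTg minus 5xFAD.

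Praf2 encodes a membrane protein of the endoplasmic reticulum and Golgi. Its score was 0.031, 0.03 and 0.032 in dTg, 0.025, 0.023 and 0.026 in N40K, 0.031, 0.032 and 0.036 in 5xFAD and 0.033, 0.037 and 0.035 in WT libraries. Only the N40K libraries were apart from the rest, and the dTg libraries overlapped with the 5xFAD libraries. The log2 difference was −0.47 ± 0.07 for N40K minus WT, against −0.08 ± 0.07 for dTg minus 5xFAD.

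Spag4 encodes a SUN-domain protein of the nuclear envelope, best known from the male germ line. Its score was 0.146, 0.125 and 0.15 in dTg, 0.185, 0.222 and 0.28 in N40K, 0.223, 0.272 and 0.255 in 5xFAD and 0.242, 0.287 and 0.274 in WT libraries. The dTg libraries were the lowest of the 12, and the N40K libraries overlapped with both the 5xFAD and the WT libraries. The log2 difference was −0.24 ± 0.15 for N40K minus WT and −0.82 ± 0.15 for dTg minus 5xFAD, an order opposite to that of Nudt16 and Praf2.

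Mob3c belongs to the MOB family of kinase activators. Its score was 0.159, 0.171 and 0.114 in dTg, 0.139, 0.154 and 0.158 in N40K, 0.209, 0.221 and 0.278 in 5xFAD and 0.191, 0.303 and 0.231 in WT libraries. The carriers lay below all other libraries, and the log2 difference was about equal in both backgrounds, −0.65 ± 0.20 for N40K minus WT and −0.68 ± 0.20 for dTg minus 5xFAD.

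Ankrd39, an ankyrin-repeat gene, and Vwa3b, named for its von Willebrand factor type A domain, have less well described roles. The Ankrd39 score was 0.029, 0.032 and 0.035 in dTg, 0.031, 0.033 and 0.042 in N40K, 0.06, 0.048 and 0.044 in 5xFAD and 0.047, 0.051 and 0.062 in WT libraries. Carriers and non-carriers were separated by 0.042 against 0.044, a gap of 2 steps of the last decimal.
The Vwa3b score was 0.05, 0.044 and 0.113 in dTg, 0.027, 0.115 and 0.073 in N40K, 0.181, 0.116 and 0.161 in 5xFAD and 0.132, 0.199 and 0.173 in WT libraries. It had the most negative log2 differences, −1.40 ± 0.51 for N40K minus WT and −1.23 ± 0.51 for dTg minus 5xFAD, and also the widest spread, with a coefficient of variation of 55.4% in dTg and 61.4% in N40K libraries. The highest carrier (0.115) and the lowest non-carrier (0.116) were 1 step of the last decimal apart.

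Zp2 encodes a protein of the coat around the egg. Its score was 0.055, 0.056 and 0.038 in dTg, 0.053, 0.047 and 0.056 in N40K, 0.077, 0.079 and 0.065 in 5xFAD and 0.064, 0.092 and 0.131 in WT libraries. The carriers were separated from the other libraries, while the WT libraries alone spanned from 0.064 to 0.131. The egg-coat genes Zp1 and Zp3 also had a row in the 6-month table, while the testis genes Prm1 and Tnp1 had none among the rows analysed here.

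**Figure D1:**
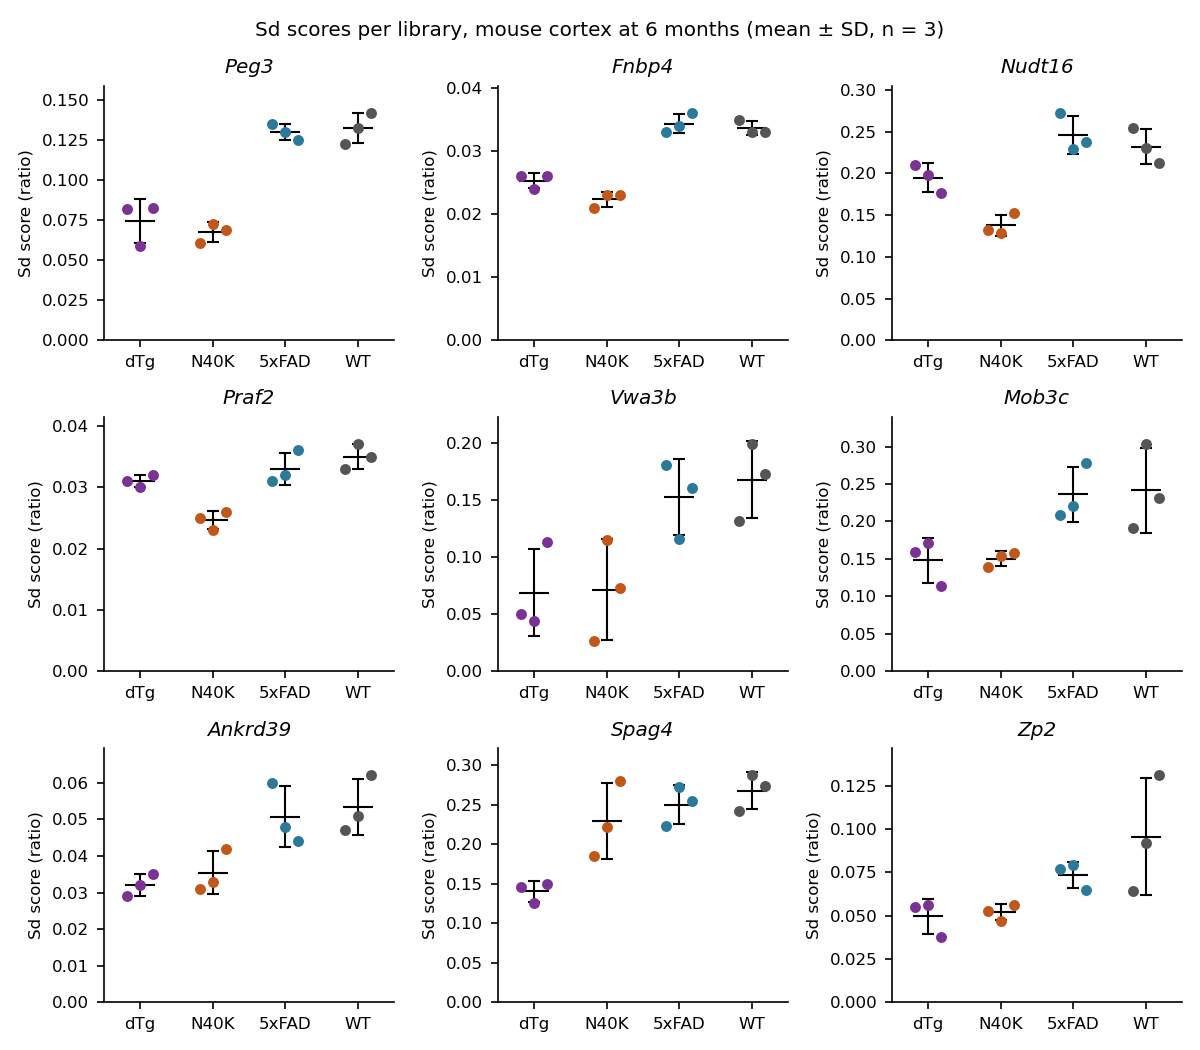
Sd score (ratio, linear axis from 0) of each gene in dTg, N40K, 5xFAD and WT cortex at 6 months, 1 point per library with the mean and SD (n = 3). In 7 of the 9 genes all dTg and N40K points lie below all 5xFAD and WT points; in Praf2 only N40K and in Spag4 only dTg stands apart.

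Side by side, the 9 genes can be set in 3 patterns by their means, without sharp limits between them. In Peg3, Fnbp4, Vwa3b, Mob3c, Ankrd39 and Zp2 the dTg and N40K means were both well under the 5xFAD and WT means. In Nudt16 and Praf2 the N40K mean was the lowest (0.138 ± 0.0125 and 0.0247 ± 0.00153, SD, n = 3) with the dTg mean above it (0.195 ± 0.0172 and 0.031 ± 0.001). Fnbp4 and Peg3 had the same order of means with a smaller step, 0.0223 and 0.0677 in N40K against 0.0253 and 0.0747 in dTg. Nudt16 also shared a trait of the first pattern, as all its carriers lay below all other libraries. In Spag4 the dTg mean was the lowest (0.14 ± 0.0134), below that of N40K (0.229 ± 0.0479). Whether the N40K difference was unequal between the backgrounds was fitted as an interaction over all 15705 genes, of which 3 passed by limma (0.0191%). Of the 9 genes 0 passed, and 3 had an unadjusted p under 0.05, as 2.87% of all genes did. These were Nudt16, Praf2 and Spag4, with interactions of 0.41, 0.39 and −0.58 on the log2 scale. The genes were chosen on the libraries behind this interaction, so the values are a description and nothing is read from these counts.

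For the averaged N40K difference, dTg and N40K libraries together against 5xFAD and WT libraries together, the 9 genes ranged from −1.31 (Vwa3b) to −0.28 (Praf2), with a median of −0.60, against a median of 0.09 over all genes. All 9 were called lower in this contrast by limma at an adjusted p under 0.05, where 0.936% of all genes were. The 6 carriers lay below the 6 other libraries in 7 of the 9, and in 0.395% of all genes. For N40K minus WT 4 of 9 were called lower (0.0255% of all genes) and 8 of 9 did not overlap (2.64%). For dTg minus WT 3 of 9 were called lower (0.166%) and 9 of 9 did not overlap (3.46%). For dTg minus 5xFAD 2 of 9 were called lower (0.0318%) and 8 of 9 did not overlap (2.36%). These contrasts share libraries and were used to choose the genes, so nothing is read from these counts. The counts also moved with the libraries used. In the averaged contrast 5 were called without both N40K replicate 1 and dTg replicate 2, and Vwa3b and Zp2 were called under 7 and 8 of 19 alternatives. With 1 library left out, the count for N40K minus WT was as low as 1 (without WT replicate 1, WT replicate 2 or N40K replicate 1). The count for dTg minus WT was 0 without any 1 of the 3 WT libraries and 1 without dTg replicate 2, and that for dTg minus 5xFAD was 0 without any 1 of the WT or 5xFAD libraries. Genes outside the 9 were also called lower in the averaged contrast without overlap of their libraries. Among them Gm13212 (−0.878) stood just below Peg3 (−0.876), and Zfp930 (−0.83) and 5730577I03Rik (−0.81) lay between Peg3 and Zp2 (−0.68). Gm13307 (−0.63) lay between Mob3c (−0.67) and Ankrd39 (−0.60). Between Ankrd39 and Nudt16 (−0.539) lay 1700028K03Rik (−0.592), Armcx2 (−0.56) and Ttn (−0.54). The 9 genes are therefore some of the genes with lower scores and not all of them.

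The median difference over all genes was above 0 in each of these contrasts, opposite in sign to the 9 genes. Of the libraries with the highest all-gene medians, N40K replicate 1 held the lowest score of its group 6 times and the highest never, and dTg replicate 2 the lowest 5 times and the highest 2 times. Without both of these libraries the averaged N40K difference of Peg3 was −0.76, and that of Vwa3b −0.91. All 36 differences (9 genes in the averaged contrast, N40K minus WT, dTg minus WT and dTg minus 5xFAD) were below 0 under every alternative setting, at −1.85 to −0.02. These settings refit the libraries on which the genes were chosen, so nothing is read from that count.

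Over the group differences and the spread together, Fnbp4 had the score pattern nearest to that of Peg3 within the 9 genes, with Pearson's r of 0.95 over the 12 libraries on the log2 scale, followed by Ankrd39 (0.86) and Vwa3b (0.86), and Spag4 was the least like it (0.65). Among 9637 genes compared with a mean score of at least 0.02, 12 had r of at least 0.9 with Peg3. The 5 genes shown from outside the 9 were picked by a rule on r that skipped genes with only a placeholder symbol. They were Wdr83 (0.98), Zfp623 (0.95), Ncl (0.93), Ttn (0.92) and Cd276 (0.92), and need not be the 5 highest of all genes compared. Wdr83 averaged 0.14 in dTg and 0.128 in N40K libraries, and 0.185 in 5xFAD and 0.175 in WT libraries. Ncl, the nucleolar protein nucleolin, averaged 0.14 in dTg and 0.141 in N40K libraries, and 0.152 in 5xFAD and 0.153 in WT libraries, so a high r went with a small difference. The 12 libraries form 2 clusters in Peg3, carriers and non-carriers, and r over them mostly reflects that step. After the mean of each group had been removed, the order was another one. Within the 9 genes, r with Peg3 was then 0.65 for Vwa3b, 0.54 for Spag4, 0.46 for Fnbp4, 0.34 for Ankrd39, 0.08 for Praf2, 0.02 for Zp2, −0.17 for Nudt16 and −0.24 for Mob3c. Outside them it was 0.93 for Wdr83, 0.90 for Cd276, 0.74 for Ncl and 0.46 for both Zfp623 and Ttn. These values are descriptions over the same 12 libraries, whose depth is unknown. The 5 genes outside were picked for a high r in these libraries, which can raise their later values too.

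The 5xFAD difference averaged over N40K status, dTg and 5xFAD libraries together against N40K and WT libraries together, sets the scores with the amyloid transgenes against those without them. It holds the same dTg and N40K libraries on which the genes were chosen, so its values are a description and not a test. By limma 0 of the 9 passed and 4 had an unadjusted p under 0.05, against 0.0446% and 6.17% of all genes, and nothing is read from these counts. For Peg3 the mean was 0.102 ± 0.0317 in libraries with and 0.1 ± 0.0363 in libraries without the 5xFAD transgenes (SD, n = 6 each), a log2 difference of 0.05 with a 95% interval of −0.15 to 0.25. Nudt16 had the largest estimate above 0, at 0.29 (0.13 to 0.45), and Spag4 the lowest at −0.39 (−0.63 to −0.16). Without N40K, 5xFAD minus WT was 0.08 ± 0.10 for Nudt16 and −0.10 ± 0.15 for Spag4. For Vwa3b the interval was wide, from −0.86 to 0.76.

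**Figure D2:**
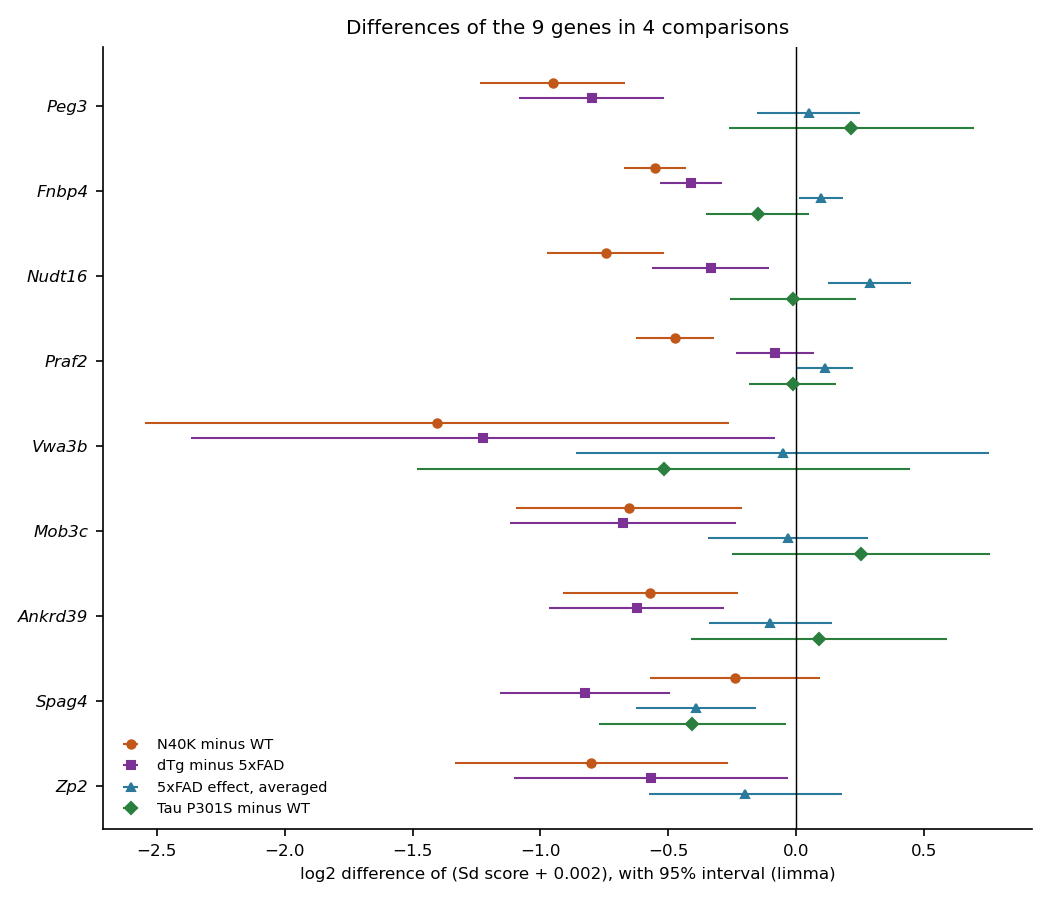
Log2 difference of each gene (horizontal axis, with 95% interval from limma) for N40K minus WT, dTg minus 5xFAD, the averaged 5xFAD difference and Tau P301S minus WT. The N40K differences, on which the genes were chosen, lie left of 0 in every gene, from −1.40 to −0.08, and the Tau P301S differences lie on both sides of 0, from −0.52 to 0.25.

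Tau P301S minus WT at 12 months is the comparison whose libraries had no part in choosing the genes. It asks whether the same scores are lower in a tau model. None of the 8 genes measured there passed (limma, adjusted p of 0.57 or more), while 1 of all 15192 genes did (0.00658%). Of the 8, 1 gene, Spag4, had an unadjusted p under 0.05 (8.28% of all genes). Of the 8 estimates 5 were below 0, with a median of −0.01, against −0.02 over all genes.

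The Peg3 score was 0.023, 0.026, 0.021, 0.02, 0.031 and 0.033 in Tau P301S libraries and 0.019, 0.014, 0.027 and 0.029 in WT libraries. The groups overlapped throughout, and WT replicates 1 and 2, which also had the lowest all-gene medians (0.013 each, against 0.017 in WT replicates 3 and 4), were the lowest in Peg3. The mean was 0.0257 ± 0.00535 in Tau P301S (SD, n = 6) and 0.0223 ± 0.00699 in WT (n = 4), a log2 difference of 0.22 with a 95% interval of −0.26 to 0.70 (limma, adjusted p = 0.826). The interval does not reach the Peg3 differences seen with N40K, which were used to choose the gene and come from another age and cross.

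Spag4 scored 0.16, 0.109, 0.113, 0.19, 0.151 and 0.145 in Tau P301S and 0.169, 0.172, 0.196 and 0.223 in WT libraries. Of the Tau P301S libraries 5 lay below all WT libraries, and replicate 4 (0.19) lay among them. The log2 difference was −0.41 (95% interval −0.77 to −0.04), with an unadjusted p of 0.0336 and an adjusted p of 0.57 by limma, so it was not called.

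Fnbp4 averaged 0.0317 ± 0.00361 in Tau P301S and 0.0353 ± 0.00263 in WT libraries, a log2 difference of −0.15 (−0.35 to 0.05). Nudt16 averaged 0.159 ± 0.0203 in Tau P301S and 0.16 ± 0.0186 in WT libraries, and Praf2 0.0128 ± 0.000983 in Tau P301S and 0.013 ± 0.00141 in WT libraries, with intervals of −0.26 to 0.23 and −0.18 to 0.16. For these 3 genes the interval leaves out a change as large as that of N40K minus WT, where they stood at −0.55, −0.74 and −0.47. Against dTg minus 5xFAD it leaves out the −0.41 of Fnbp4 and the −0.33 of Nudt16 but holds the −0.08 of Praf2. These N40K differences were used to choose the genes and come from another age and cross, so they are no independent yardstick.
Mob3c averaged 0.0622 ± 0.0112 in Tau P301S and 0.0535 ± 0.0183 in WT libraries (0.25, −0.25 to 0.76). Ankrd39 averaged 0.009 ± 0.00228 in Tau P301S and 0.0085 ± 0.00311 in WT libraries (0.09, −0.41 to 0.59), and Vwa3b 0.008 ± 0.00559 and 0.011 ± 0.00374 in the same order (−0.52, −1.48 to 0.45). Scores of Vwa3b and Ankrd39 this low move by a sizeable part with each step of the last decimal, and the interval of Vwa3b holds differences as large as its N40K difference.

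**Figure D3:**
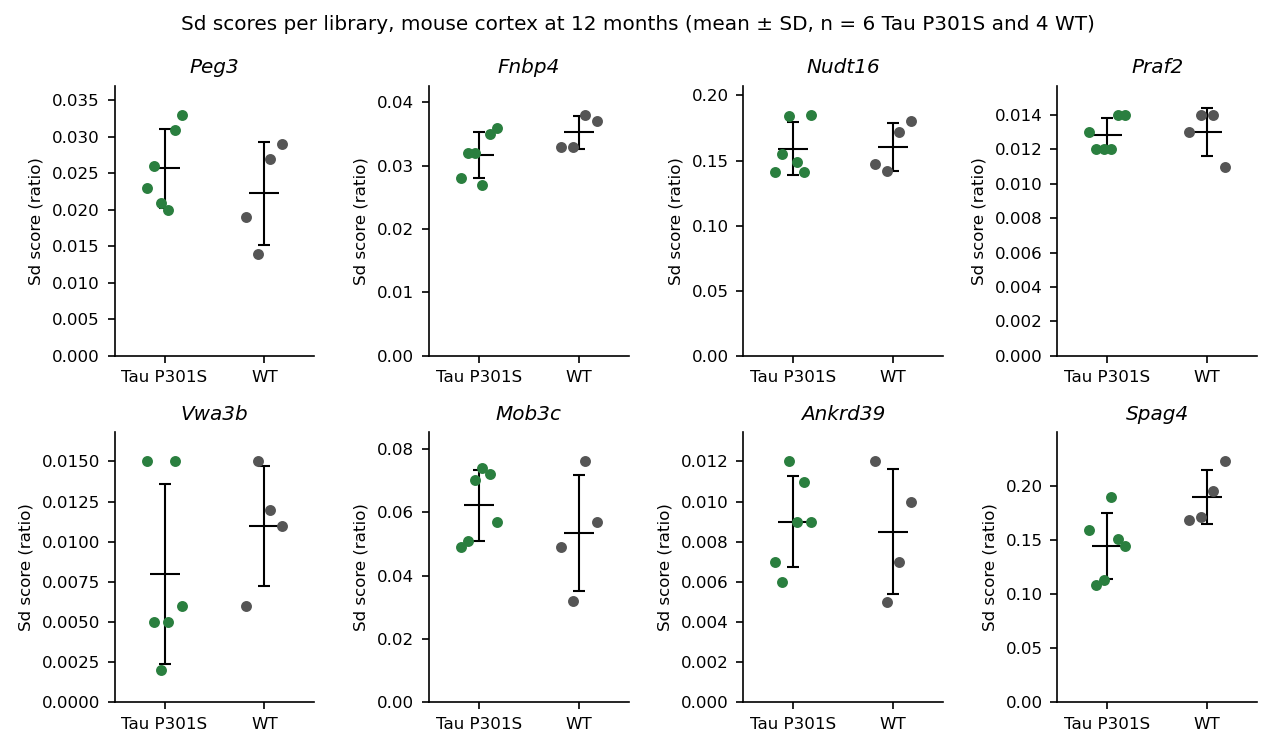
Sd score (ratio, linear axis from 0) of the 8 genes measured in Tau P301S (n = 6) and WT (n = 4) cortex at 12 months, 1 point per library with the mean and SD. The groups overlap in each of the 8 genes, and in Spag4 5 of the 6 Tau P301S points lie below the lowest WT point of 0.169.

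The level of these genes in WT mice is set side by side for both ages, without a test, because the tables were made separately and age, cross and table cannot be told apart. Peg3 averaged 0.0223 in WT at 12 months and 0.133 in WT at 6 months, a ratio of 0.18 after the pseudocount. Vwa3b had a ratio of 0.0765, Ankrd39 of 0.19, Mob3c of 0.228 and Praf2 of 0.405. Over the 12949 symbols found in both tables the median ratio was 0.69. Nudt16 (0.693) and Spag4 (0.712) were close to that median, and Fnbp4 (1.04) was above it. Of the shared genes 0.726% had a lower ratio than Vwa3b, 3.34% than Peg3 and 3.65% than Ankrd39. In the WT order of levels Peg3 stood above 81.6% of genes at 6 months and above 58.8% at 12 months, while Spag4 stood above 92.5% of genes at 12 months and above 90% at 6 months.

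**Figure D4:**
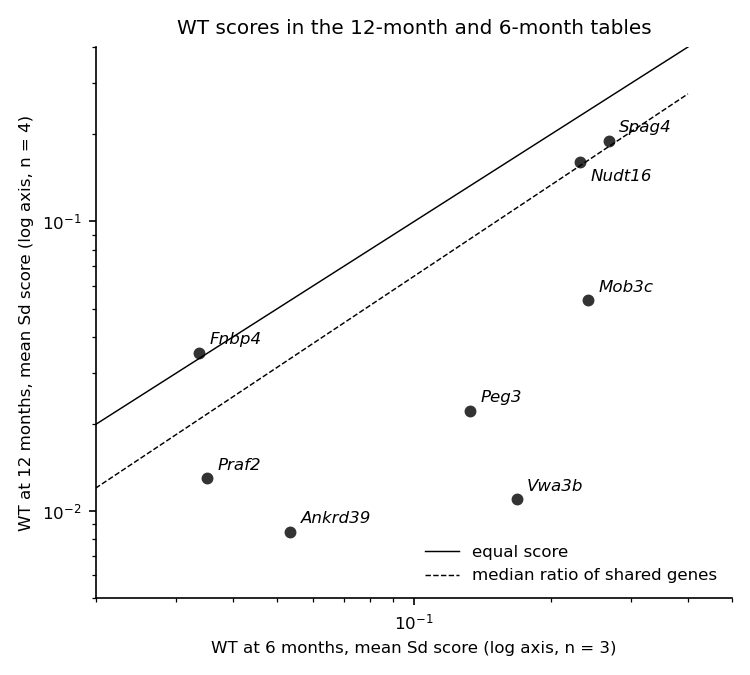
Mean Sd score in WT cortex at 12 months (vertical, n = 4) and at 6 months (horizontal, n = 3), both log axes, for the 8 genes in both tables, with lines for equal scores and for the median ratio of shared genes (0.69). Spag4 and Nudt16 lie on the median line, Fnbp4 above it, and Vwa3b, Ankrd39, Peg3 and Mob3c far below it.

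The scores of neighbouring genes were set beside those of the 9 genes. The 2 measured genes on each side of each of the 9 (36 genes, order from GENCODE M21) had a median averaged N40K difference of 0.10, close to the 0.09 of all genes. None was called lower (0.936% of all genes were) and 3 were called higher (10.8% of all genes were). Zim1, the imprinted zinc-finger gene 7.44 kb from Peg3, averaged 0.164 in dTg, 0.133 in N40K, 0.133 in 5xFAD and 0.127 in WT libraries (log2 difference 0.20, limma adjusted p = 0.276). Wdr45, which ends 0.233 kb from Praf2, had a difference of 0.05, Ankrd23, 0.624 kb from Ankrd39, one of 0.28 (adjusted p = 0.0517), and Sema4c on its other side one of −0.03. The 3 that rose were Faah near Mob3c, the enzyme that breaks down anandamide, with 0.122 in dTg and 0.125 in N40K libraries against 0.064 in 5xFAD and 0.062 in WT libraries (1.91-fold, adjusted p = 0.00514), the mitochondrial ribosomal protein gene Mrpl3 near Nudt16 (1.41-fold, adjusted p = 0.0128), and the transcription factor gene Tfe3 near Praf2 (1.21-fold, adjusted p = 0.0375). Faah lay 131 kb from Mob3c, Mrpl3 49 kb from Nudt16 and Tfe3 31.5 kb from Praf2. Some other neighbours in gene order lay farther off, such as Uqcrc2 at 490 kb from Zp2. Faah and Mrpl3 passed under all 19 alternatives and Tfe3 under 7. With 1 library left out, Tfe3 passed in 3 of 12 cases, without N40K replicate 2, 5xFAD replicate 2 or dTg replicate 1, and reached an adjusted p of up to 0.0839 without 5xFAD replicate 3.

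**Figure D5:**
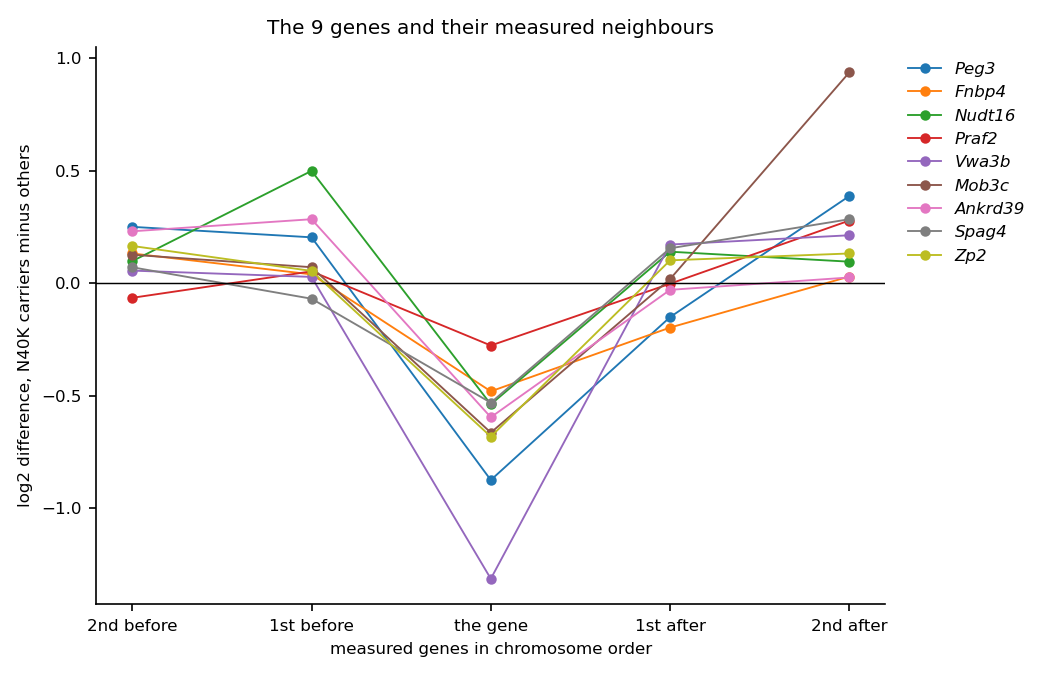
Averaged N40K difference (log2, N40K carriers minus other libraries) of each of the 9 genes at the centre and of the 2 nearest measured genes on either side, in chromosome order. The 9 genes lie at −1.31 to −0.28 and their 36 neighbours at −0.20 to 0.94.

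Other imprinted genes were counted beside Peg3. Of 74 listed, 45 had a row at 6 months, and 7 were called higher and 1 lower in the averaged N40K difference, with a median of 0.05 against 0.09 over all genes (10.8% of all genes were called higher and 0.936% lower). The highest ranked by p were Pon3, a lactonase (1.53-fold, adjusted p = 0.0183), Grb10, an adaptor that restrains insulin signalling (1.24-fold, adjusted p = 0.0206), and Ube3a, the ubiquitin ligase of Angelman syndrome (1.21-fold, adjusted p = 0.0213), all limma. Pon3 averaged 0.00633 in dTg, 0.0107 in N40K and 0.00467 in both 5xFAD and WT libraries. Grb10 averaged 0.0123 in dTg, 0.011 in N40K and 0.009 in both 5xFAD and WT libraries. For scores this low, the differences are a few steps of the last decimal, and the filter at a mean score of 0.02 removes both genes. Grb10 missed the threshold without WT replicate 2 (0.0513) or 5xFAD replicate 3 (0.0501), and Ube3a without WT replicate 1 (0.0502), 5xFAD replicate 3 (0.054) or dTg replicate 2 (0.0501). With libraries scaled to equal medians, Grb10 (0.172) and Ube3a (0.127) did not pass, and without both N40K replicate 1 and dTg replicate 2, Pon3 (0.0728) and Ube3a (0.0594) did not. The 1 gene lower, named after its value was seen, was the maternally expressed noncoding RNA Meg3 (0.922-fold, adjusted p = 0.0449). No imprinted gene passed for the averaged 5xFAD difference. Of the 45, 3 had an unadjusted p under 0.05 (6.17% of all genes did), with the smallest p in Sfmbt2. None of 48 measured passed in Tau P301S minus WT. There 5 had an unadjusted p under 0.05 (8.28% of all genes did), with the smallest p in Peg10 (0.832-fold, limma adjusted p = 0.487).

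A list of 9 genes was drawn up around Peg3 and the cell-death route it is placed in. It held Siah1a, Siah1b, Traf2, Bax, Trp53, Becn1, Tcf25, Trim28 and Zfp57, whose ties to Peg3 were not checked here. Of the 9, 1 gene was called higher and none lower with N40K, where 10.8% of all genes were called higher and 0.936% lower. It was Trp53, the gene for p53, with 0.0843 in dTg and 0.0857 in N40K libraries against 0.0743 in 5xFAD and 0.073 in WT libraries (1.15-fold, limma adjusted p = 0.0347). With single libraries removed, Trp53 passed in 2 of 12 fits, those without N40K replicate 2 or dTg replicate 1, with 0.0793 as the highest adjusted p, and with libraries scaled to equal medians it did not pass (0.387). The list had a median of 0.19, against 0.09 over all genes. None of these genes passed for the averaged 5xFAD difference, and 0 had an unadjusted p under 0.05 (6.17% of all genes did). In Tau P301S minus WT none of 7 measured passed. There 1, Traf2, had an unadjusted p under 0.05 (8.28% of all genes did).

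Genes of the same families as the 9 were set beside them. Of 65 listed, 61 had a row, and 5 were called higher and 1 lower in the averaged N40K difference, with a median of 0.08, against 10.8% and 0.936% of all genes and a median of 0.09 over them. Nudt9 (1.4-fold, adjusted p = 0.0108) and Nudt4 (1.41-fold, adjusted p = 0.032), Nudix hydrolases like Nudt16, rose, and Nudt10 fell (0.818-fold, adjusted p = 0.0156), with 0.341 in dTg and 0.32 in N40K libraries against 0.399 in 5xFAD and 0.41 in WT libraries. With single libraries removed, Nudt4 passed in 4 of 12 fits, those without WT replicate 3, N40K replicate 2, N40K replicate 3 or dTg replicate 1, and its highest adjusted p was 0.0762. Nudt10 passed in all 12, though not without N40K replicate 1 and dTg replicate 2 together (0.061).
Among the closest relatives by name, Nudt16l1 had a difference of −0.04, Rabac1, which like Praf2 is a PRA1-domain protein, 0.00, Vwa3a 0.03, Mob3a 0.41, Mob3b 0.15, and the SUN-domain genes Sun1 and Sun2 0.15 and −0.04. Of the 13 relatives measured none was called lower (0.936% of all genes were) and 1 was called higher (10.8% of all genes were). It was Fnbp1l (1.24-fold, limma adjusted p = 0.0477), though with single libraries removed it passed in 2 of 12 fits, those without WT replicate 3 or 5xFAD replicate 2, and its highest adjusted p was 0.114. No gene of the family list passed for the averaged 5xFAD difference. Of its 61 measured genes, 4 had an unadjusted p under 0.05 (6.17% of all genes did), with the smallest p in Nudt8. None of 58 measured passed in Tau P301S minus WT. There 5 had an unadjusted p under 0.05 (8.28% of all genes did), with the smallest p in Nudt9 (0.782-fold, limma adjusted p = 0.344).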

How the data were processed

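Per the labels' protocols, stranded libraries of poly(A) RNA from cortex were sequenced from both ends. The values used are the Sd scores, a ratio for each gene in each library, deposited by the authors in 1 table for 6 months and 1 for 12 months, with 3 decimals. The submitters' processing notes name CASAVA, STAR, BWA and bedtools 2.16.1 with build mm9; the formula, counter, annotation and depth are not given in the sources used here. No value was missing.

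Scores were taken as log2(score + 0.002), with a pseudocount set at the 5th percentile of nonzero scores, without scaling libraries. Groups were compared with limma 3.58.1 (R 4.3.3), 1 term per group, all libraries of a table in 1 fit (8 residual degrees of freedom each). P-values are two-sided, adjusted by Benjamini-Hochberg over all genes of the table, with 0.05 as the threshold. Errors of log2 differences are limma standard errors. The fit was tested on simulated data. The p-values set each group difference against the spread between these libraries, which may hold technical variation. The averaged 5xFAD difference and the interaction, planned as tests for most of the 9 genes, are given as descriptions, because their libraries chose the genes.

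The 9 genes and the gene lists were chosen with earlier results of these data known. Genes named from a list are up to 3 past the threshold by p, otherwise the one of smallest p; the alternatives for these and for the neighbours were added after seeing the data. Structure, gene order and junctions come from GENCODE M21 (GRCm38), matched for 15366 of 15705 rows, without its coordinates. Alternatives were another pseudocount, median-centring, a variance trend, a mean score of at least 0.02, the replicate number as a block and leaving out libraries.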

Additional observations from a re-analysis of the deposited data

How the results depend on the processing

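The genes called for the averaged N40K difference (9 of 9) numbered 5 without N40K replicate 1 and dTg replicate 2 together and 6 to 8 with 1 library left out. Over all 19 alternatives Vwa3b passed in 7, Zp2 in 8, Mob3c in 17, Ankrd39 in 18 and the other 5 genes in all. For N40K minus WT (4) the count was 1 at 10 times the pseudocount, 0 after centring, 1 at a mean score of at least 0.02 and 1 with the replicate block, and 1 to 4 with 1 library left out. For dTg minus WT (3) it was 0 with the replicate block and 0 to 4 with 1 library left out, at 0 without any of the 3 WT libraries. For dTg minus 5xFAD (2) it was 0 at 10 times the pseudocount, 0 after centring, 0 at a mean score of at least 0.02 and 0 with the replicate block, and 0 to 3 with 1 library left out, at 0 without any 1 of the WT or 5xFAD libraries. None of the 9 passed for the averaged 5xFAD difference or the interaction, and none of the 8 for Tau P301S minus WT, under any alternative run. The replicate numbers were not shown to pair the libraries: same-numbered libraries of different groups deviated together with r of −0.19 to 0.08 at 6 months and −0.28 to 0.20 at 12 months. Over all genes, calls in either direction were counted, unlike the lower calls of the 9 genes in the N40K contrasts. With the replicate block they were 889 against 1838 (averaged N40K), 17 against 28 (N40K minus WT), 31 against 247 (dTg minus WT) and 15 against 49 (dTg minus 5xFAD). At a mean score of at least 0.02 they were 832, 2, 49 and 0, among the fewer genes that pass that filter. The cause of these moves was not tested. At 12 months that filter removes several of the 8 genes, and the depth behind the scores is unknown.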
